A study of Drosophila melanogaster with 7 samples.

Results

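Binding of CLAMP to chromatin was described in the female line Kc, from 2 libraries made with rabbit anti-CLAMP and 1 library made with control rabbit IgG. The intervals of both CLAMP peak lists were merged wherever they overlapped by at least 1 bp, which gave 12748 regions on X, 2L, 2R, 3L, 3R and 4. A region was kept as a Kc consensus region if both CLAMP libraries held it and no Kc IgG peak overlapped it. There were 2984 such regions, 23.4% of all merged regions, and they covered 2.12 Mb of the genome. The number rests on both libraries, since without replicate 1 or without replicate 2 the same rule gave 6786 and 7606 regions. Of the 2984 summits 35.9% lay within 500 bp of a gene end, against 11.9% of IgG summits. The rule itself removes regions with an IgG peak, and in the whole CLAMP lists, before that filter, the share was 24.5% and 29.9%. The regions were more densely spaced on X than on the other large arms, and frequent at heat shock genes and at genes of the ecdysone response.

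CLAMP recognises GA-rich DNA through its zinc fingers. In male flies it helps to bring the dosage compensation complex, a ribonucleoprotein of MSL proteins and roX RNAs, to the X chromosome, where the complex raises transcription. Female cells do not assemble that complex, since Sxl blocks translation of msl-2, but CLAMP is made and is essential in both sexes. The GAGA factor, product of Trl, binds DNA of similar composition, so genes with GA repeats near their promoters, such as heat shock genes, are classic places to look for either protein.

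Kc is an established line of Drosophila melanogaster embryonic cells, labelled female. All 3 libraries came from untreated, unfixed cells grown at 25 °C, and the antibody was the difference between the groups. The assay was CUT&RUN, in which an antibody tethers a nuclease that cuts out the bound DNA for sequencing. The series holds 7 samples, of which these 3 entered, and a further female CLAMP sample had been dropped by the submitters for lack of material. Nothing in the labels says that both CLAMP replicates came from separate cultures, so their spread may be technical. With 2 libraries against 1, the smallest p that an exact permutation test allows is 0.333, so values are given per library and without tests. Peak lists hold no reads and no expression values, so the depth is unknown and the line could not be checked against marker genes. The number of X copies in these cells was not measured.

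The CLAMP lists held 9832 peaks in replicate 1 and 8769 in replicate 2, and the IgG list was almost as long, with 8615. CLAMP peaks covered 3.78 and 3.98 Mb and IgG peaks 3.08 Mb. A deposited q-value of 0.0001 or less was reached by 53.7% and 67.1% of the CLAMP peaks and by 33.7% of the IgG peaks. IgG peaks lay in gene-poor windows, defined as windows of 1 Mb with fewer than 60 genes, in 27.2% of cases, against 13.8% and 18.8% of CLAMP peaks. Gene-poor DNA thus took a larger part of the IgG list than of either CLAMP list.

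The CLAMP lists also differed from the IgG list in their position relative to genes. A summit was placed at a gene end if an annotated gene began or ended no more than 500 bp away. Gene ends held 24.5% and 29.9% of the CLAMP summits, a mean of 27.2% ± 3.80 (SD, n = 2), and 11.9% of the IgG summits. The difference between the CLAMP mean and IgG was larger than the gap between the CLAMP libraries. The median distance from a summit to the nearest gene end was 2242 and 2134 bp in the CLAMP lists and 4431 bp in the IgG list. The gene table used here gives no strand, so starts of genes could not be told from their 3′ ends.

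The consensus regions lay closer to gene ends than the regions which also carried an IgG peak. Of the 2984 consensus summits, 1070 lay at a gene end (35.9%, 95% Wilson interval 34.2 to 37.6), 1577 lay deeper inside a gene (52.8%, 51.1 to 54.6) and 337 lay outside genes (11.3%, 10.2 to 12.5). Intervals cover counting error only. A further 1421 regions were held by both CLAMP libraries but overlapped an IgG peak, 32.3% of the 4405 regions held by both. In that class 7.04% of summits lay at a gene end and 52.9% outside genes. The median distance to a gene end was 1037.5 bp for consensus regions and 10725 bp for the class with an IgG peak. Gene-poor windows held 137 consensus regions (4.59%) and 607 of those with an IgG peak (42.7%). Whether density of genes accounts for the difference in position was not tested.

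Regions seen in a single CLAMP library and free of IgG peaks differed between the libraries. Gene ends held 25.0% of the 3987 regions of replicate 1 alone and 37.6% of the 3432 regions of replicate 2 alone. The second share was above that of the consensus regions, so a position at gene ends was not particular to regions that both libraries held.

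**Figure D1:**
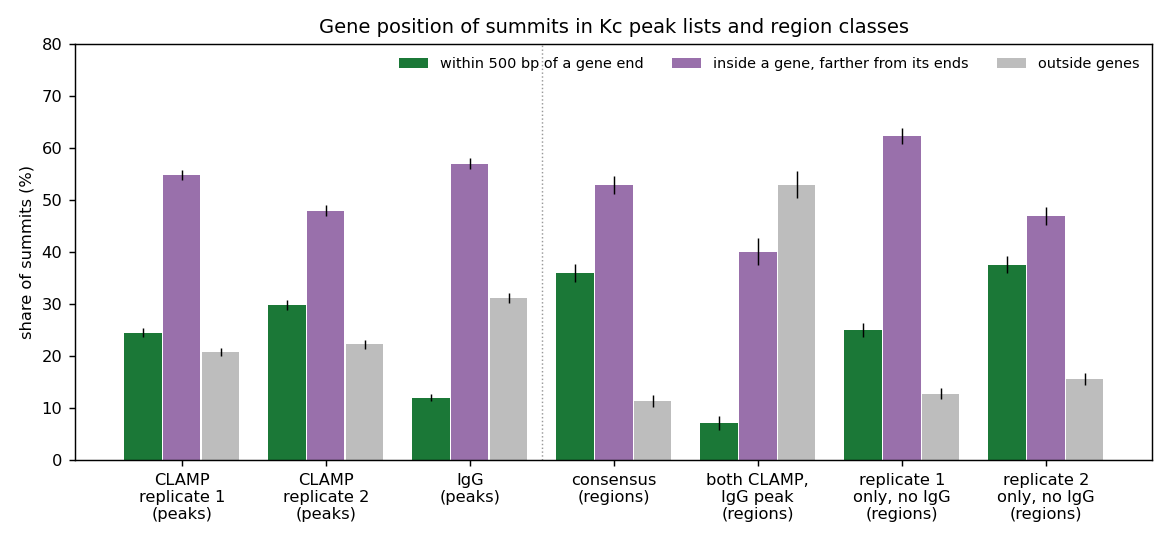
Share of summits (percent) within 500 bp of a gene end, deeper inside a gene, or outside genes, for the 3 Kc peak lists (left of the dotted line) and 4 classes of merged regions, with bars of 95% Wilson error. The gene-end share was 35.9% in consensus regions and 7.04% in regions of both CLAMP libraries that also carried an IgG peak.

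Consensus regions were broad. Their median width was 620 bp, with quartiles of 438 and 876 bp, and 537 regions (18.0%) were wider than 1 kb. Regions of a single library had medians of 237 and 236 bp, and regions of both libraries with an IgG peak had a median of 658 bp. A merged region is at least as wide as the wider of its peaks, so width is partly set by the merging. In 1645 regions (55.1%) at least 1 library called several summits.

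**Figure D2:**
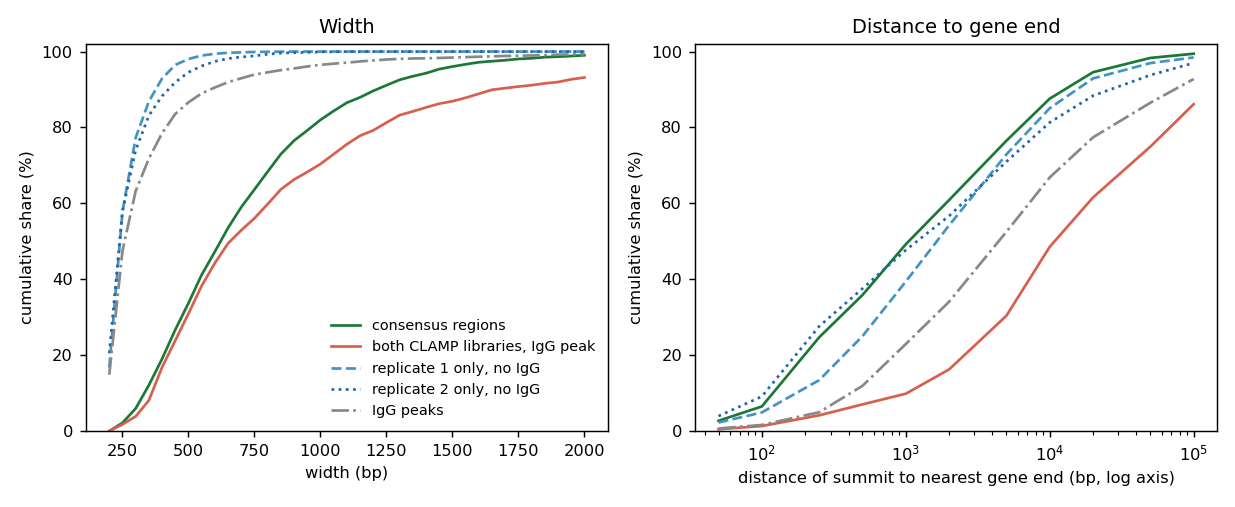
Cumulative share (percent) of regions or peaks by width in bp (left) and by distance of the summit from the nearest gene end in bp, log axis (right), for 4 region classes and the Kc IgG list. Within 1000 bp of a gene end lay 49.2% of consensus summits, 9.85% of summits in regions of both CLAMP libraries with an IgG peak and 22.9% of IgG summits.

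Inside the shared regions the summits of the CLAMP libraries lay near each other, which the rule partly fixes. A consensus region needs overlapping peaks of both libraries, and this limits how far apart their summits can lie. The distance between the strongest summits of both libraries had a median of 92 bp, with quartiles of 33 and 202 bp, and it was at most 100 bp in 1561 regions (52.3%). The fold enrichment that the authors deposited for each peak, which serves here only to describe and rank peaks within a list, had a Spearman rho of 0.529 between the libraries across the consensus regions. Those regions share their libraries, so rho is a description. By base pairs, the overlap of both CLAMP lists divided by their union was 0.364, against 0.158 and 0.152 for each CLAMP list with IgG.

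Strong peaks were found again far more often than weak ones. Replicate 1 peaks were put into 5 equal classes by deposited p-value. Of the class with the lowest, 95.2% overlapped a replicate 2 peak, and of the last class 25.6% did. In replicate 2 the shares were 92.0% and 34.0%. The libraries differed in how IgG entered this order. Among replicate 1 peaks, 41.1% of the first class and 14.1% of the last overlapped an IgG peak, whereas in replicate 2 the shares were 22.1% and 26.3%.

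The strongest consensus regions lay at gene ends more often than the weakest. The regions were put into 5 equal classes by strength, taken as the mean, over both libraries, of the percentile of the fold within its list. In the strongest class 42.6% of summits lay at gene ends and 6.88% outside genes, and in the weakest class the shares were 26.3% and 17.1%. Between them the gene-end share had no steady order, with 36.7%, 35.0% and 38.7%. The median width was 961 bp in the strongest class and 422 bp in the weakest. The share on X had no steady order with strength, with 21.6% of the strongest class and 25.0% of the weakest.

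The X chromosome carried the densest consensus regions. It held 701 regions, 23.5% of all (95% Wilson interval 22.0 to 25.0), while it makes up 17.6% of the length of these arms and holds 15.3% of their genes. Per Mb of arm up to the last annotated gene there were 29.8 regions on X, 18.7 on 2L, 22.4 on 2R, 20.6 on 3L and 21.8 on 3R. In the single lists X had 101 and 78.9 CLAMP peaks per Mb, against 68.3 and 63.0 on arms 2L to 3R together. The IgG list went the other way, with 59.2 peaks per Mb on X and 66.3 on those arms. A large share on X was not particular to consensus regions, since 26.5% of the regions of both libraries with an IgG peak and 25.0% of the regions of replicate 1 alone lay there. Of the regions of replicate 2 alone 17.4% did, close to the length share of X, and without replicate 1 the rule placed 20.4% of regions on X. The regions on X resembled the others in width, with a median of 613 bp, and 35.9% of them lay at gene ends.

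Coding genes on X held a consensus region more often than those elsewhere. A gene was said to hold a region that overlapped it or came within 500 bp of it. On X 508 of 2197 protein-coding genes did (23.1%, 21.4 to 24.9), and on 2L, 2R, 3L and 3R 1685 of 11645 (14.5%, 13.8 to 15.1). Genes on X are longer, with a median coding-gene length of 2520 bp against 2080 bp. In 10 classes of equal size by gene length, the X share was the higher in 9, and the exception was the class of the shortest genes, with 6.67% on X and 7.48% elsewhere. The intervals lay apart in 4 classes. In the class of the longest genes the shares were 51.7% and 42.0%.

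**Figure D3:**
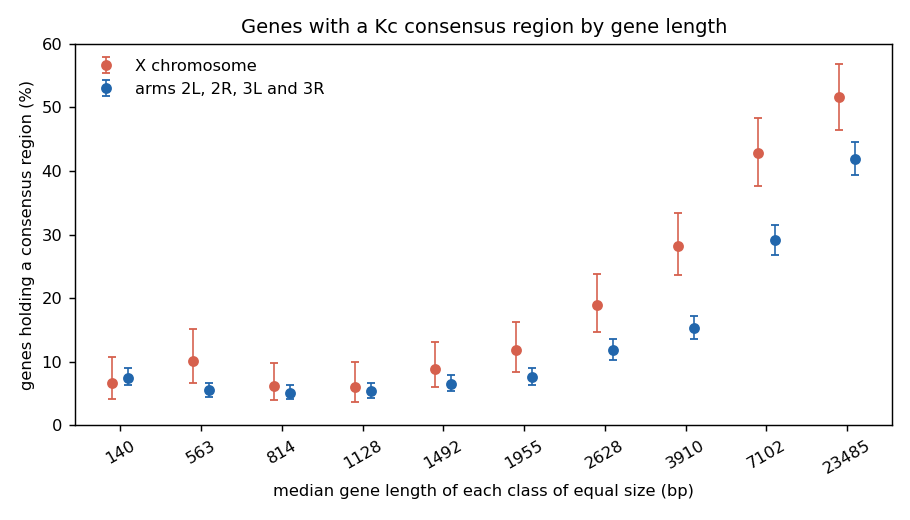
Share of genes (percent) holding a Kc consensus region in 10 classes of equal size by gene length, labelled with the median length in bp, for X and for arms 2L, 2R, 3L and 3R, with 95% Wilson intervals. The share was higher on X in 9 of the 10 classes and reached 51.7% on X and 42.0% elsewhere among the longest genes.

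Chromosome 4, the small chromosome of largely heterochromatic make-up, held 5 consensus regions. Without replicate 1 the rule gave 50 there and without replicate 2 it gave 10. Regions at gene ends lay at zfh2, which encodes a zinc-finger homeodomain protein (501579 to 501985, folds 2.40 and 5.13), and at Tdg and Pur-alpha with lncRNA:CR43958 (556883 to 558078, folds 3.52 and 3.91). The third lay at gw, which encodes the GW182 protein of microRNA silencing, and CG46466 (659747 to 660554, folds 1.92 and 2.61). The remaining pair lay outside genes, 15264 and 46606 bp from Cadps, a gene of dense-core vesicle release. Both were beyond the last annotated gene of the chromosome. Their folds were 2.94 and 6.81 for the nearer region and 3.52 and 11.1 for the farther.

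The 20 strongest consensus regions were spread over the arms, with 5 on X, 1 on 2L, 4 on 2R, 4 on 3L and 6 on 3R. Of their summits 10 lay at gene ends, 8 inside genes and 2 outside. Their folds ran from 4.15 to 6.55 in replicate 1 and from 8.64 to 17.6 in replicate 2, and their widths from 506 to 1561 bp.

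The strongest region lay at chr2R:25285102-25286208, 29784 bp from CG9380, with folds of 6.30 in replicate 1 and 14.2 in replicate 2. It lay beyond the last annotated gene of 2R, as did 4 consensus regions of that arm in all. Next came a region inside Ntan1, which encodes an N-terminal asparagine amidohydrolase (2R 18652555 to 18653388, folds 5.62 and 13.5). The third lay at the end of lncRNA:CR45564 and lncRNA:CR45565 (3R 31688999 to 31689645, folds 5.07 and 16.1). Both libraries ranked these regions within the top few percent of their lists, which the choice by mean percentile requires.

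Transcription factor genes among the 20 were disco, a zinc-finger gene (X 16216549 to 16218109, folds 4.67 and 12.8), and hth, a homeobox gene (3R 10614257 to 10614762, folds 6.55 and 9.44). They also included ttk, a BTB zinc-finger repressor gene (3R 31713029 to 31714129, folds 4.89 and 10.8), and tio, a zinc-finger gene of the teashirt family (2L 22024235 to 22024895, folds 5.19 and 9.86). The gene emc encodes a helix-loop-helix antagonist, and its region also reached hng3 (3L 748538 to 749589, folds 4.32 and 10.9). The region at MEP-1, a zinc-finger gene, overlapped CG42245 (3L 2634784 to 2636102, folds 4.87 and 10.1).

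RNA regulators were pum, the gene of the translational repressor Pumilio (3R 9226734 to 9227509, folds 5.42 and 11.4), and ps, a splicing regulator gene (3R 9436310 to 9436912, folds 4.92 and 9.33). The region at the end of dup, the replication licensing factor gene, lay also at SRPK, an SR protein kinase gene (2R 15380649 to 15381379, folds 4.54 and 10.9). FBXO11, an F-box gene, held a region at its end (3R 9808757 to 9809402, folds 4.55 and 13.3).

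The rest of the 20 lay at genes of varied roles. On X they were at Hexo2, a hexosaminidase gene (8708707 to 8709910), inside beta-Spec, the beta-spectrin gene (17658510 to 17659551), at e(r), the enhancer of rudimentary gene (8905029 to 8906221), and at rtv and Dlic, the latter a dynein light intermediate chain gene (11154076 to 11155303). The region at rtv and Dlic had the highest fold of any consensus region in replicate 2, 17.6, and a fold of 4.15 in replicate 1. On the autosomes they lay inside ckn, an adaptor protein gene (2R 14964382 to 14965033), at AcCoAS, the acetyl-CoA synthase gene, with ppl (3L 21280021 to 21280560), and at caps, a leucine-rich repeat protein gene (3L 13227669 to 13228966).

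The 10 widest consensus regions measured 2291 to 3240 bp, and 4 of them lay on X. They included regions at skd, which encodes a Mediator subunit, at Ant2 and sesB, the adenine nucleotide translocase genes, at Prosalpha3 and CG10543, at BNIP3 and mTerf3, and at CG32486. The list ended with lncRNA:CR43651 and mir-14, crol, Hex-A with lncRNA:CR45541, and ph-d, a Polycomb group gene. Of their summits 7 lay inside genes and 3 at gene ends.

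In all, 2544 of 17684 genes held a consensus region (14.4%), among them 2198 of 13922 protein-coding genes (15.8%). A Kc IgG peak lay at 3567 genes (20.2%). Without replicate 1 or without replicate 2 the regions lay at 4378 and 4361 genes. Gene length was tied to holding a region: coding genes that held 1 had a median length of 6657.5 bp and the others 1896.5 bp. The lowest share among the 10 length classes was 5.31%, and the highest was 43.2% in the class of the longest genes. Each list of genes below is therefore set beside the share over all genes of the same length classes. A region within reach of several overlapping or neighbouring genes was counted for each, and 960 regions (32.2%) were.

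The heat shock list had the highest share of any list. Of its 20 genes, 16 held a consensus region, against 13.4% of genes of the same length classes, and no IgG peak lay at any of the 20. The 19 regions had folds of 1.73 to 5.51 in replicate 1, with a median of 2.43, and of 2.05 to 7.96 in replicate 2, with a median of 3.67. At gene ends lay 14 of the 19. Beside Hsf, a transcription factor gene, the listed genes encode chaperones that rise upon heat, their constitutive relatives and hsr-omega, a noncoding RNA of the heat shock response. These cells were not heat shocked.

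All 6 Hsp70 genes, which encode the major heat-induced chaperone, held 1 consensus region each, within 140 bp of a gene end. The region at Hsp70Ba had folds of 5.51 and 7.96 (3R 12467679 to 12468557), that at Hsp70Bc 4.11 and 4.94 (3R 12508699 to 12509184) and that at Hsp70Bbb 3.48 and 4.15 (3R 12502098 to 12502604). At Hsp70Bb the folds were 3.64 and 3.67 (3R 12505475 to 12506068), at Hsp70Ab 3.24 and 3.21 (3R 11958156 to 11958751) and at Hsp70Aa 2.65 and 2.65 (3R 11956431 to 11956771). These copies are nearly identical in sequence and the reads were 25 bp long, so which copy a read came from is uncertain.

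In the small heat shock cluster of 3L several genes shared regions. A region at 3L 9373622 to 9374027, with folds of 2.96 and 6.35, had its summit inside a gene and counted for both Hsp22 and CG4456, the name the gene table gives for the listed Hsp67Bb. A region at 3L 9372595 to 9373100 counted for those genes and Hsp67Bc, with folds of 2.23 and 3.10. Hsp23 and Hsp27 shared a region at 3L 9382947 to 9384012 with folds of 2.43 and 4.25, and Hsp23 held another at 3L 9381396 to 9381906. Hsp26 and Hsp67Ba had a single peak each, in replicate 2.

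Outside that cluster, Hsp68 held a region at 3R 24056909 to 24058197 with folds of 2.93 and 4.82, and Hsp83, which encodes the Hsp90 chaperone, held 1 with folds of 2.14 and 2.42 (3L 3196916 to 3197584). The noncoding lncRNA:Hsromega held 2 regions, the stronger at 3R 21295869 to 21297695 with folds of 3.95 and 5.05. The constitutive chaperone genes Hsc70-4 and Hsc70-3 held 2 and 3. Hsf, the gene of the heat shock transcription factor, had no peak in any Kc list, and DnaJ-1 had 2 peaks in replicate 1 alone.

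The ecdysone response list, genes that relay or answer the moulting steroid, held the most regions. Of its 25 matched genes 18 held a consensus region, against 37.3% of genes of the same length classes, and 17 held 2 or more (68%), against 19.6% of genes of the same length classes and 4.01% of all genes. The members are long, with a median of 25645 bp. An IgG peak lay at 9 of the 25 (36%), against 50.4% of genes of the same length classes. Together they held 89 regions, of which 79 had their summit inside a gene and 9 at a gene end. Kc cells respond to ecdysone, but no hormone treatment is described for these samples.

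Eip75B, a nuclear receptor gene induced by ecdysone, held 18 regions, more than any other gene. They lay along its 113744 bp (3L 17950953 to 18064696), except for 1 just outside its lower end. Their total width equalled 10.9% of the gene length, and no IgG peak was called there. Folds ran from 1.54 to 3.45 in replicate 1 and from 2.19 to 9.64 in replicate 2, with the highest replicate 2 value at 3L 17961549 to 17962613. Eip74EF, an early ETS factor gene, held 12 regions, again without an IgG peak, with folds of up to 4.84 and 8.72. The receptor genes themselves were covered too, with 5 regions at EcR and 2 at usp, its partner.

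Among the other members, ftz-f1, a nuclear receptor gene of the prepupal response, held 9 regions, the strongest at 3L 18771151 to 18772365 with folds of 4.45 and 8.82. Eip63E, a cyclin-dependent kinase gene, held 6, and br, an early zinc-finger gene, Hr4 and Eip78C held 5 each. IgG peaks lay at Eip63E (4), Hr4 (2) and Eip78C (6), and at Eip63E and Eip78C 3 more regions of both libraries each overlapped an IgG peak. The strongest region of tai, a receptor coactivator gene, had folds of 3.58 and 14.2 (2L 9205076 to 9205819). That of Hr39 had folds of 4.57 and 5.92 (2L 21250408 to 21251108), and that of vri, a bZIP gene, 3.83 and 6.59 (2L 5306360 to 5307151). No consensus region lay at Hr38, Hr78, MsrA, Ddc, ImpE1, ImpE2 or Eip63F-1.

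**Figure D4:**
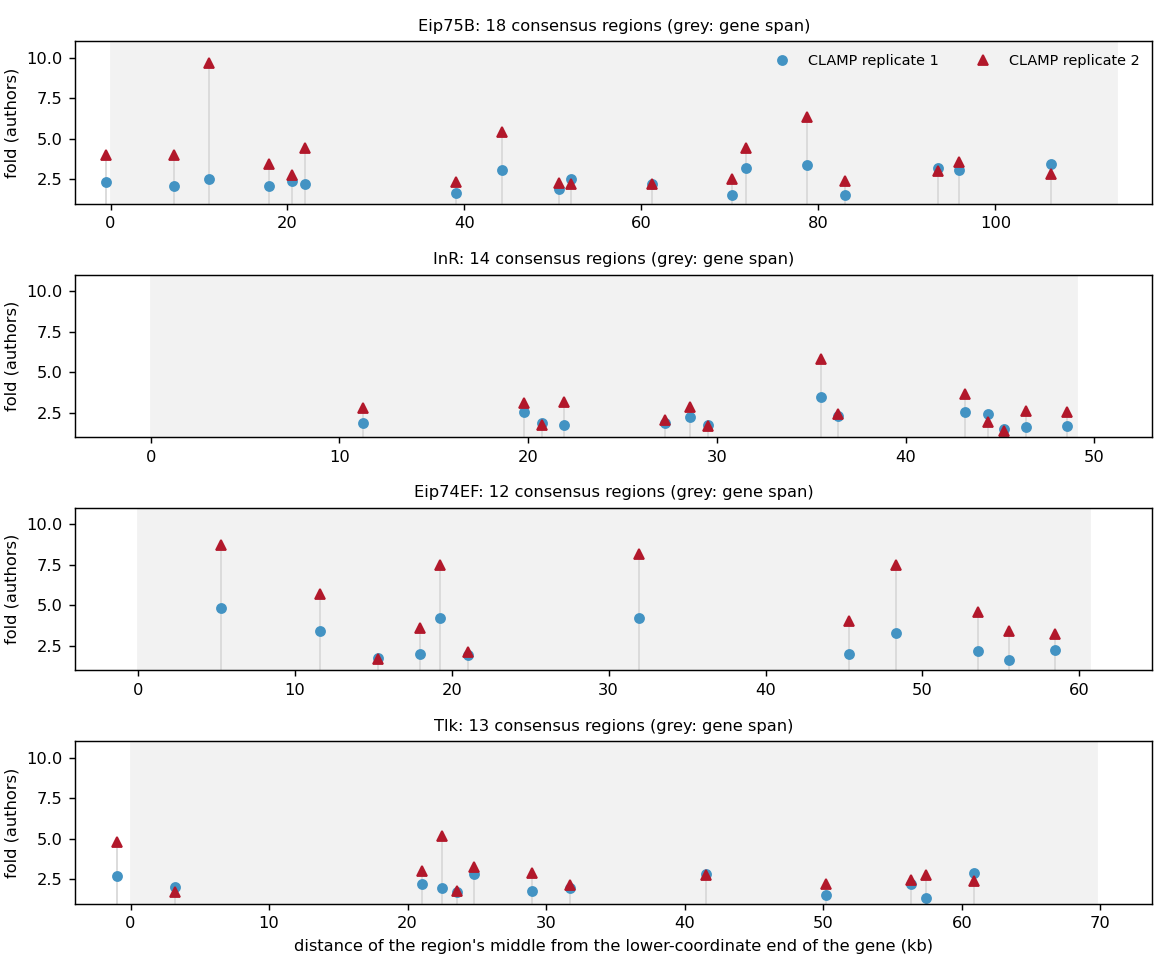
Consensus regions along Eip75B, InR, Eip74EF and Tlk, by distance in kb of the region's middle from the lower-coordinate end of the gene (grey span), with the authors' fold in each CLAMP library on the vertical axis, which starts at 1. The genes held 18, 14, 12 and 13 regions, and the highest fold shown was 9.64, at Eip75B in replicate 2.

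Few genes held many regions. Of all genes 710 held 2 or more, 68 held 5 or more and 18 held 8 or more. After Eip75B came InR, the insulin receptor gene (3R 21570248 to 21619321), with 14 regions whose total width equalled 22.4% of its length. Tlk, the gene of the tousled-like kinase, held 13 (X 3720007 to 3789770). Among the 8 genes with most regions were also bun, a gene of the TSC-22 family, and mam, the gene of the Notch coactivator Mastermind, with 12 each. The GA-binding factor gene psq held 10. Myo81F held 13 too, but it spans 1965857 bp of the proximal 3R, where 431 IgG peaks were called, so its rate was 0.0661 per 10 kb against 2.85 for InR. No other gene of the 8 had more than 4 IgG peaks.

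Of 10 listed genes of dosage compensation 3 held a consensus region, against 22.2% of genes of the same length classes, and no IgG peak lay at any of them. The noncoding RNA gene lncRNA:roX2 held a region at X 11579947 to 11580744, with a fold of 2.67 in replicate 1 and 4.83 in replicate 2. Clamp itself held 1 at the upper end of the gene (2L 22168393 to 22169493), with folds of 2.79 and 4.36. JIL-1, the gene of a histone H3 kinase enriched on the male X, held 1 at 3L 11092692 to 11093176, with folds of 2.78 and 3.07. All 3 lay at gene ends.

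The other 7 genes of the list held none. At mof, the gene of the histone acetyltransferase of the complex, each library called peaks but at separate places. No peak in any Kc list lay at lncRNA:roX1, at msl-1, msl-2 and msl-3, which encode its protein subunits, at mle, the gene of its RNA helicase, or at Unr, the gene of an RNA-binding repressor of msl-2 translation. A gene without a peak is one where none was called at this depth, which is unknown.

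Of 22 sex determination genes 6 held a consensus region, against 19.5% of genes of the same length classes, and 11 held 1 without replicate 2, where the length-class share was 32.4%. Sxl, which sets female fate, held 2 regions inside the gene. The stronger, at X 7097008 to 7098045, had folds of 3.33 and 5.93. At fru, a gene of male courtship, there were 7, all inside the gene, with the strongest at 3R 18473781 to 18474923 (folds 3.27 and 5.61). The next strongest of these regions by replicate 2, at 3R 18447233 to 18448646, had folds of 2.28 and 4.38.

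At dsx, the transcription factor gene at the end of the pathway, the region lay just outside the gene (3R 7967802 to 7968192, folds 2.56 and 7.19). Mettl3, which encodes the m6A methyltransferase, held a region just outside the gene with folds of 2.82 and 5.17 (3R 24031184 to 24032070). Its summits, at 24031540 and 24031646, lay more than 500 bp from Mettl3, which begins at 24032157, and near the end of another gene. The corepressor gene gro held a region at its end with folds of 2.62 and 8.29 (3R 26041724 to 26042824). The region at emc, with folds of 4.32 and 10.9, was the strongest of the list. At dsx and gro an IgG peak also lay elsewhere at the gene.

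The rest of the sex determination list had peaks in a single library, or none. Replicate 1 alone had a peak at tra, ix, sisA and upd1, and replicate 2 alone at fl(2)d and nito. At tra2, the splicing cofactor gene, each library had a peak but the peaks did not overlap. At dmrt99B the IgG list alone had a peak. No Kc list had a peak at her, snf, vir, Mettl14, da, sc, run or dpn. The fl(2)d peaks of replicate 2 reached a fold of 4.94, although replicate 1 called none there.

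Of 7 genes of GA-binding and early zinc-finger factors 5 held a consensus region, against 34.6% of genes of the same length classes, and together they held 21. Trl, the GAGA factor gene, held 5 regions within 13121 bp, the strongest at 3L 14756232 to 14757110 with folds of 2.79 and 4.39. At psq the strongest of its 10 regions had folds of 2.58 and 5.69 (2R 10568618 to 10569861). The gene ttk held 3 and grh, a transcription factor gene of epidermal development, held 2, with the strongest at 2R 17821903 to 17822781 (folds 3.09 and 2.77). Clamp, given above, held 1. Neither zld, the gene of the zygotic genome activator, nor Opbp held any.

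Chromatin regulators were bound unevenly. In the Polycomb and Trithorax groups 10 of 25 genes held a region, against 28.4% of genes of the same length classes. The strongest lay at ph-d (X 2122584 to 2124874, folds 4.16 and 5.62), at Su(z)2 (2R 12996202 to 12997651, folds 3.57 and 6.81), at Psc (2R 12979915 to 12981371, folds 3.15 and 5.58), inside osa (folds 3.73 and 5.04) and at mor (folds 3.06 and 6.63). The region at mor (3R 15972980 to 15974300) began just beyond the gene, which ends at 15972913. Both osa and mor encode subunits of the Brahma remodelling complex. The genes ph-d, Su(z)2 and Psc encode components of Polycomb repressive complex 1 or a close relative. Of 15 insulator protein genes 2 held a region, against 15.6%, namely mod(mdg4), with folds of 2.96 and 5.71, and su(Hw), with 1.55 and 6.02. Without replicate 1 or replicate 2, 5 and 4 insulator genes held 1, where the length-class shares were 27.8% and 27.9%.

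Immune and blood cell genes were of interest since Kc cells resemble hemocytes, the blood cells of the fly. Of 24 Toll and Imd pathway genes 10 held a region, against 18.0% of genes of the same length classes. The strongest lay at Dredd, a caspase gene of the Imd pathway (X 635878 to 637389, folds 3.72 and 9.48), at cact, the gene of the inhibitor of Toll signalling (2L 16324980 to 16326268, folds 2.97 and 9.14), and at imd (2R 18413383 to 18414493, folds 2.62 and 5.62). The kinase gene Tak1 (folds 2.86 and 3.75) and the NF-kappaB gene Dif (folds 2.84 and 2.99) followed. The region at Dredd began beyond the gene, which ends at 635545, and its summit lay inside another gene. The antimicrobial peptide genes Drs, Mtk, AttA, CecA1 and Def held none, but they are short, and 6.95% of genes of the same length classes held a region. Def had a peak in replicate 1.

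Of 21 hemocyte genes 8 held a region, against 28.8%. They included the blood transcription factor genes lz (X 9284045 to 9284657, folds 3.47 and 10.95), srp (3R 15993145 to 15994551, folds 2.46 and 3.63) and ush, which held 9 regions, the strongest with folds of 2.21 and 4.70. The cytokine gene upd3 (folds 2.02 and 6.84) and the collagen gene vkg (folds 2.66 and 2.36) followed. At lz and at upd3, 1 more region of both libraries overlapped an IgG peak. No Kc list had a peak at gcm, gcm2, NimC1, eater, He, crq or Sr-CI. Pxn, drpr, PPO1, PPO2, hop and Ppn had peaks in at least 1 Kc list but no consensus region. An IgG peak lay at 7 of the 21 genes (33.3%), against 37.7% of genes of the same length classes.

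Among 24 cell cycle genes 10 held a region, against 18.2% of genes of the same length classes, and 13 of their 18 regions had the summit at a gene end. After dup came E2f1, the gene of the activating E2F factor, with 5 regions (strongest folds 3.99 and 7.26). They were followed by stg, the Cdc25 phosphatase gene (folds 3.44 and 6.17), dap, a cyclin-dependent kinase inhibitor gene (folds 3.20 and 6.69), and CycE, the cyclin E gene (folds 3.11 and 4.69). The mitotic cyclin gene CycA held 2 regions, CycB3 had a peak in replicate 2 alone, and CycB had none in any Kc list. Of the kinase genes aurA had a peak in replicate 2 alone, and Cdk1, polo and aurB had none.

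Developmental regulators were above their length-class share. Of 43 patterning transcription factor genes 19 held a region, against 30.5%, and 23 had an IgG peak (53.5%), against 40.03% of genes of the same length classes. Beside disco and hth, the strongest lay at disco-r (folds 4.56 and 9.47), en (2R 11527886 to 11528579, folds 5.16 and 7.04) and bi (folds 3.22 and 8.03). Of 27 signalling genes 12 held a region, against 34.8%. The strongest lay at N, the Notch receptor gene (X 3162044 to 3163212, folds 4.79 and 7.56), dome, the receptor gene of the JAK/STAT pathway (X 19682829 to 19683793, folds 3.42 and 12.2), InR (folds 3.49 and 5.78), upd2 (folds 3.05 and 3.62) and Pvf1 (folds 2.60 and 3.75), a growth factor gene.

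RNA regulators were mixed. Of 27 splicing regulator genes 11 held a region, against 25.7% of genes of the same length classes. Beside ps they were led by mub (folds 4.47 and 9.06), elav (folds 4.57 and 7.83), Syp (folds 3.21 and 4.29) and x16 (folds 3.10 and 3.17). Of 9 genes of the m6A machinery 2 held a region, against 18.8%, namely Mettl3 and Ythdc1, a nuclear m6A reader gene (folds 2.94 and 7.15). An IgG peak also lay at Ythdc1. Without replicate 1 or replicate 2 the m6A count was 5 and 3, where the length-class shares were 32.3% and 32.8%.

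Germline genes stood below their length class. Of 14 oogenesis and female germline genes only osk, the gene of the pole plasm organiser Oskar, held a region (folds 2.67 and 3.87), against 26.02% of genes of the same length classes. The count was 0 to 5 under the other settings tried, with 5 without replicate 1 and 3 without replicate 2, where the length-class shares were 40.4% and 40.5%. Of 14 neuronal genes 4 held a region, against 39.7%: elav, Syx1A (folds 2.76 and 4.26), brp (folds 4.06 and 2.96) and Appl (folds 4.001 and 2.76). An IgG peak lay at 8 of the 14 (57.1%), against 51.8% of genes of the same length classes. The count of genes holding a region was 8 without replicate 1 and 7 without replicate 2, where the length-class shares were 55.4% and 54.7%.

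Of 10 X-linked genes of growth and housekeeping 5 held a region, against 19.7%. That share is over genes of all arms, whereas every member lies on X, where genes of most length classes held regions more often. In the class with a median length of 3910 bp the shares were 28.2% on X and 15.3% on 2L to 3R. How much of the difference goes with X was not tested. The kinase gene sgg held 5 regions, the strongest at X 2633984 to 2634969 with folds of 2.95 and 4.73. The actin gene Act5C held 3, with folds of 2.65 and 3.85 at the strongest (X 5899228 to 5900962), and the remaining genes were Fur2 (folds 3.40 and 3.49), Gapdh2 (folds 2.51 and 3.85) and Zw (folds 2.45 and 4.22). Over all 17 lists, the share of members holding a region was above that of the same length classes in 14 and below it in 3, the insulator, germline and neuronal lists. Without replicate 1 the insulator and neuronal lists were above it. The lists share some genes, such as Clamp, Mettl3 and elav, so they are not separate counts. Some of the 14 lay close to the length-class share, such as the m6A list with 2 of 9 genes (22.2%) against 18.8%.

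**Figure D5:**
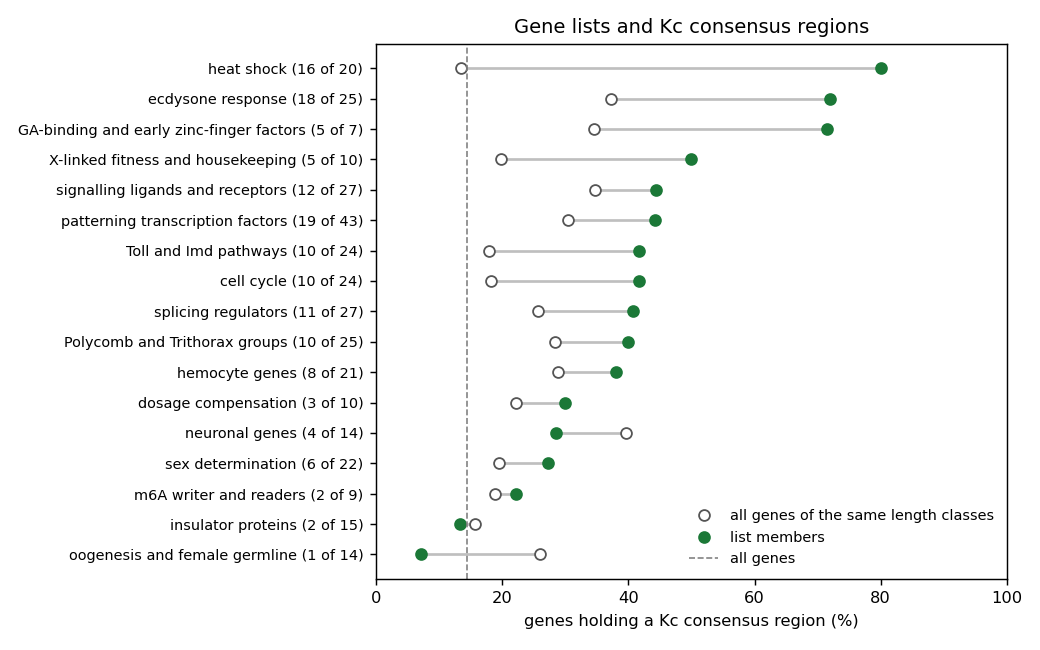
Share (percent) of the matched members of 17 gene lists that held a Kc consensus region (filled), beside the share over all genes of the same length classes (open) and over all genes (dashed line, 14.4%). The heat shock list lay highest, with 16 of 20 genes against 13.4%, and the germline list lowest, with 1 of 14 against 26.02%.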

How the data were processed

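Reads were processed by the authors with FastQC, Trimmomatic, Bowtie2 and MACS2 on the build dm6, per the submitters' processing notes. Versions, the control used for calling and duplicate removal are not given in the sources used here. Library input was 1 ng, amplification took 14 PCR cycles, and fragments were sequenced as paired reads of 25 bp, per the labels. Each library has its own deposited list, so the lists used here were not called on pooled samples. Each deposited peak has a score, a fold (the ratio of the summit signal to the caller's background) and a p- and q-value as −log10 (neg_log10_p). The score was not used, and the other values filtered and ranked peaks within a list only.

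Deposited entries of identical interval became 1 peak, represented by its strongest summit, and peaks on Y and the mitochondrial genome were set apart. Regions, shares, Wilson intervals (95%) and base-pair overlaps were computed with Python 3.11.15, numpy 2.4.6, pandas 2.3.3 and scipy 1.17.1, and figures with matplotlib 3.10.9. The steps were checked on simulated intervals with known answers. Genes (17684) came from a RefSeq table (Release 6 plus ISO1 MT, the assembly behind dm6). That table has no strand, and no sequence was used here, so the planned shares in promoter windows and of GA motifs were not computed. Of 342 listed names, 5 had no single match.

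The regions, lists and settings were chosen with earlier results of these data known. The text names every dosage compensation and sex determination gene and the genes at the 20 strongest and 10 widest regions. The genes at 1 of the widest regions are not reported here. It also names the 8 genes with most regions, all genes with a region on chromosome 4, and, for the other lists, the 5 members with the strongest regions. Other members named were chosen after their values were seen. Alternatives were stricter q-values, equally long lists, another overlap, summit windows, other IgG filters, other gene distances and each replicate left out.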

Additional observations from a re-analysis of the deposited data

How the results depend on the processing

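Of 78 values recomputed, 48 stayed within the spread of the libraries or within 1.5 times, and 30 moved. Of 221 list counts, 196 stayed within 1.5 times. The number of regions was 1965 with CLAMP peaks limited to a q-value of at most 0.0001 and the whole IgG list, and 1895 with the 5000 best peaks per list. With either CLAMP replicate left out the rule asks for 1 library, and the number was 6786 to 7606 regions at 4361 to 4378 genes, median width 273 to 293 bp. Median width was 719.5 and 723 bp with the strict q-value in both kinds of list or in the CLAMP lists alone, 744 bp with equally long lists and 259 bp with windows of 100 bp to either side of summits. The share of CLAMP peaks overlapping IgG, 22.6%, was 19.6%, 25.5%, 23.0%, and 15.5% under those settings in that order, 28.7% with a margin of 500 bp and 15.9% with IgG peaks limited likewise, a setting added after seeing the data. The X share was 20.4% to 24.2% with a replicate left out. The gene-end share was 26.6% with no IgG filter, 29.6% to 36.9% with a replicate left out, and 0.0335% and 49.2% with 0 and 1000 bp as the distance. The share outside genes was 10.1% with strict CLAMP peaks, 15.1% with summit windows, 24.7% with no IgG filter, 9.85% with the IgG margin, 14.5% with strict IgG peaks, 9.17% without gene-poor windows (also added later) and 12.2% to 13.4% with a replicate left out. The heat shock list held regions at 14 to 18 of 20 genes and the ecdysone list at 16 to 20 of 25 under all settings. Over all genes the share holding a region ran from 10.5% to 24.8% under these settings. Without replicate 1 the list counts were 18 and 20, where the length-class shares were 25.2% and 52.4%. No paired analysis was possible because a single IgG library entered, so the groups share fewer than 2 replicate numbers. The planned promoter-window share was not run. Depth is unknown, so regions called in a single library cannot be told apart from regions missed for want of reads.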

Other observations

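Consensus regions often lay in runs along the chromosome. Joining regions less than 10 kb apart gave 1585 groups, and 876 regions (29.4%) stood alone. Chains of 5 or more regions numbered 82 and held 538 regions (18.0%), and 27 of these chains lay on X. The longest had 16 regions within 63.8 kb (X 12621486 to 12685281), over Tis11, the gene of an mRNA decay factor, Smr, a nuclear corepressor gene, CkIalpha and neighbouring genes. The next were the 14 regions of InR, 11 regions over Irk1, cnc, fzo and neighbours (3R 23173368 to 23228881) and 11 over Tlk.

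Among 2033 genes of at least 10 kb, 862 (42.4%) held a consensus region, and the rate per 10 kb was 0 at the median and 2.61 at the 99th percentile. Tis11 had the highest rate, 3.89 per 10 kb, followed by Trl with 3.81, Nup153, a nuclear pore gene, with 3.57, CG3764 with 3.36 and HmgD, a high mobility group gene, with 3.27.

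Small RNA genes differed among themselves. Of 290 tRNA genes 25 held a region (8.62%, 95% Wilson interval 5.91 to 12.4) and 5 had an IgG peak, while 8 of 269 snoRNA genes (2.97%, 1.51 to 5.76) held a region. Genes of these short classes share neighbours, and the same length classes as tRNA genes held regions in 7.35% of cases. Of 503 antisense RNA genes 72 held a region (14.3%, 11.5 to 17.6), against 8.79% for genes of the same length classes, but reads at overlapping genes cannot be told apart.

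The lists of this female line also held peaks on Y, 150 and 156 with CLAMP and 206 with IgG, and 7, 9 and 9 peaks on the mitochondrial genome. No CLAMP count was above that of IgG.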
